A study of Homo sapiens with 6 samples.

Results

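The glucocorticoid receptor gene NR3C1 and 7 genes linked to its signalling, SGK1, SGK3, TSC22D3, FKBP5, PER1, KLF9 and DUSP1, were followed in MDA-MB-231 cells with and without knockdown of PUS1. They are 8 of the 60605 genes in the expression table and were found there by symbol. The set was chosen by name with the difference between the knockdown and control libraries already known. The fold changes and edgeR calls of these 8 genes are therefore given as a description and are not read as a test. MDA-MB-231 is a human breast cancer cell line of mesenchymal appearance that lacks the estrogen and progesterone receptors and ERBB2 amplification. PUS1 is a pseudouridine synthase, an enzyme that converts uridine to pseudouridine in transfer RNA and other RNAs. In the study, PUS1 was silenced to find genes that responded to its loss. Poly(A)-selected RNA was sequenced from 3 libraries of cells carrying a control hairpin (shControl) and 3 libraries of cells carrying a hairpin against PUS1 (shPUS1).

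Both groups were grown in medium with fetal bovine serum and were infected with a lentiviral vector that also confers puromycin resistance. The labels call the libraries biological replicates but do not say whether each came from its own infection, so the spread between libraries may be partly technical. The deposited columns number the knockdown as 2, but the text used here does not say which of the hairpins against PUS1 the sequenced cells carried, and a single hairpin cannot be told apart from its off-target effects. No library is labelled as treated with a glucocorticoid, and the levels below are therefore those of cells in serum.

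The glucocorticoid receptor is a transcription factor of the nuclear receptor family that is held in the cytoplasm by HSP90 and its partner proteins. Binding of cortisol or a synthetic steroid releases the receptor to the nucleus, where it binds DNA at glucocorticoid response elements or acts through other factors. Well-known induced genes encode the kinase SGK1, the anti-inflammatory leucine zipper protein GILZ (TSC22D3), the HSP90 partner FKBP5, which lowers the receptor's affinity for its ligand, the clock protein PER1, the zinc finger repressor KLF9 and the MAP kinase phosphatase DUSP1. SGK3 is a relative of SGK1 that is recruited to endosomes by its phosphoinositide-binding domain, and it is included here as the nearest kinase of the family rather than as a classical induced gene. In triple-negative breast cancer cells, glucocorticoid signalling is known for its link to survival under chemotherapy, with SGK1 and DUSP1 among the genes involved.

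The libraries held 14241505 to 19625998 estimated counts, and 14748 genes were tested after a filter on low counts. PUS1 itself had 1.13, 0.95 and 0.93 FPKM (fragments per kilobase of exon scaled to the library total) in the shPUS1 libraries and 2.57, 4.66 and 2.18 FPKM in the shControl libraries. Its log2 fold change was -1.64 (SE 0.32, n = 3 per group, edgeR adjusted p = 0.0462), or -1.20 (adjusted p = 0.00311) without shControl replicate 2. It was not called when shControl replicate 1 or any 1 of the shPUS1 libraries was left out, fits in which 0 genes were called lower. The library labelled shControl replicate 2 stood apart from the others. Its log2 expression across genes correlated with that of the other shControl libraries at 0.951 and 0.952, whereas these correlated with each other at 0.981 and with the shPUS1 libraries at 0.966 to 0.977. Of the tested genes, 1675 (11.4%) were at least 1 log2 unit lower in that library than the mean of the other 2 controls and 751 (5.09%) were at least 1 log2 unit higher. The members' differences, and the calls on other named genes that turn on that library, are given with and without it.

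The line's identity was checked with 9 marker genes. VIM, the mesenchymal intermediate filament gene, lay between 286 and 498 FPKM and CD44 between 74.6 and 99.6 FPKM. ESR1 did not exceed 0.04 FPKM, PGR 0.01 FPKM and CDH1, the epithelial cadherin gene, 0.18 FPKM. ERBB2 lay between 4.93 and 6.91 FPKM and EPCAM between 2.21 and 3.12 FPKM. PTPRC, a gene of blood cells, reached at most 0.02 FPKM and PECAM1, a gene of endothelial cells, at most 0.46 FPKM. Of the 6 markers with enough counts to be tested, 0 passed an edgeR adjusted p of 0.05, 2 had an unadjusted p under 0.05, and 1 passed without shControl replicate 2.

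Start regions are shown for SGK1, the member with the clearest separation of the groups, and for KLF9, DUSP1 and PER1, the members farthest below the other controls in shControl replicate 2. The RefSeq table for GRCh38.p14 held 19 windows for 7 of the genes, each reaching from 250 bases before to 50 bases after an annotated start. Windows are printed up to 20 bases past the start, on the minus strand of the chromosome and from 5′ to 3′. Capitals mark AGAACA, the hexamer found on each side of a glucocorticoid response element, the cyclic AMP response element TGACGTCA, the E-box CACGTG and the TATA motif TATAAA, or their reverse complements.
SGK1, chr6:134177842-134178111: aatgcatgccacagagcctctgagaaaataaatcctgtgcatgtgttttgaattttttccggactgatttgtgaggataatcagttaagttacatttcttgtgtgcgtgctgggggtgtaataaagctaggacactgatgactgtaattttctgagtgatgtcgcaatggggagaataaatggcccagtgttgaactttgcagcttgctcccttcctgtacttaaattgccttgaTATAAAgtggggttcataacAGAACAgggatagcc
SGK1, chr6:134174847-134175116: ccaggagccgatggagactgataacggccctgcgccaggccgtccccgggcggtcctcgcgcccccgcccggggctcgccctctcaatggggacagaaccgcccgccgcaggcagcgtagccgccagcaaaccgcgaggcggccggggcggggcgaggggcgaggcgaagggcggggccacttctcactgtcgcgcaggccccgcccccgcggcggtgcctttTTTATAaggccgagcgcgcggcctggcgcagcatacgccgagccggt
DUSP1, chr5:172771176-172771445: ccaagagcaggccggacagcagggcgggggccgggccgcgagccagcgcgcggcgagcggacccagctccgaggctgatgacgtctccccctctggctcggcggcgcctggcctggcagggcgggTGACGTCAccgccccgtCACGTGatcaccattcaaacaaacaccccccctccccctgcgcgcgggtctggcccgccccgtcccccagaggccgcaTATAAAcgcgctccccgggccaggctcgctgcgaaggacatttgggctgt
KLF9, chr9:70414638-70414907: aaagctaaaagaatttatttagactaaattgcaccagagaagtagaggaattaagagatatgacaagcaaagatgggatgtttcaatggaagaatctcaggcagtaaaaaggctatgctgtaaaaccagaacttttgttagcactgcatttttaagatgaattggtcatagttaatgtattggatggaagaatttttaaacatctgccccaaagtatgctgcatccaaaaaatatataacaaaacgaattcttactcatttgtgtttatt
PER1, chr17:8152385-8152654: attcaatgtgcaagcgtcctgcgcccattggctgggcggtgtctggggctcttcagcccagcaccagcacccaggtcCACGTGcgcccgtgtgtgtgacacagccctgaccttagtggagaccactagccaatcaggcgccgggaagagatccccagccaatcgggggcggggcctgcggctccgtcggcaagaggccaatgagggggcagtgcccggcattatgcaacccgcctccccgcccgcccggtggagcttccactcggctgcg

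In the first SGK1 window AGAACA began 6 bases into the transcript and TATAAA began 15 bases before its start, while in the second the reversed TATA motif began 27 bases before the start. The DUSP1 window held the cyclic AMP response element 125 bases, the E-box 108 bases and TATAAA 30 bases before the start. The KLF9 window held no marked motif. The remaining SGK1 window, not printed, held the reversed TATA motif 96 bases before its start. The PER1 window held an E-box 173 bases before the start. On both strands, AGAACA was found in 2 of the 19 windows, from SGK1 and FKBP5, against 14.8% of all 35116 windows in the table. The E-box was found in 3 of the 19, from DUSP1, FKBP5 and PER1, against 7.26% of all windows. The cyclic AMP response element was found in 1 of the 19, against 1.85% of all windows, and the TATA motif in 6, against 11.5%. The full palindrome, AGAACA and TGTTCT with 3 bases between them, was found in 0 of the 19 and in 1 of all windows. Its shorter form, GNACA and TGTNC with 3 bases between them, was found in 0 of the 19 and in 0.39% of all windows. Several windows belong to the same gene, and a match in these letters is a description only.

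NR3C1 (ENSG00000113580), on the minus strand of chromosome 5 from 143277931 to 143435512, encodes the receptor. It had 16.3, 18.5 and 15.3 FPKM in the shPUS1 libraries and 14.3, 14.3 and 17.5 FPKM in the shControl libraries. The groups overlapped, and the log2 fold change was 0.14 (SE 0.13), or 0.11 without shControl replicate 2. All 6 libraries lay between 14.3 and 18.5 FPKM, including the control library that stood apart, where its log2 CPM (counts scaled to the library total) differed by -0.07 from the mean of the other controls. The 5 protein-coding genes whose log2 CPM followed NR3C1 most closely over the 6 libraries, of 12600 candidates, were ATM, ELK4, PTBP3, RPS6KA3 and LRBA, with Pearson's r from 0.988 to 0.996. NR3C1 has 9161 exonic bases, SGK1 has 9990 and FKBP5 has 10628. Genes with at least 8000 differed between libraries as a group, as given below. The part of this in the values of NR3C1, SGK1 and FKBP5 was not tested.

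SGK1 (ENSG00000118515) lies on the minus strand of chromosome 6 from 134169248 to 134318112. It encodes a serine/threonine kinase close to AKT that acts on ion transport and cell survival. Its level was 3.80, 3.93 and 3.52 FPKM in the shPUS1 libraries and 1.74, 1.50 and 1.67 FPKM in the shControl libraries. Each shPUS1 library was above each shControl library, and the estimated counts behind these values ran from 602 to 719 against 238 to 294. The log2 fold change was 1.22 (SE 0.13), and it was 1.18 (SE 0.10) without shControl replicate 2, in which SGK1 differed by -0.11 log2 units from the other controls. SGK1 was the 1 member of 8 that passed an edgeR adjusted p of 0.05 and the 1 member whose groups did not overlap. Over all tested genes 2.58% passed that threshold, 1.74% in the higher and 0.841% in the lower direction. With a log2 fold change of at least 1 asked for in addition, 1.37% passed, and 36.1% of all tested genes had groups that did not overlap in CPM. Because SGK1 was selected on this contrast, nothing is read from its count against these shares. SGK1 is also one of the long genes named above, and the part of their difference in its log2 fold change was not tested. SGK1 lost its place among the calls when shControl replicate 1 or any 1 of the shPUS1 libraries was left out, with log2 fold changes of 1.19 to 1.26, and only 0 to 11 genes were called in all in those 4 fits.

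**Figure D1:**
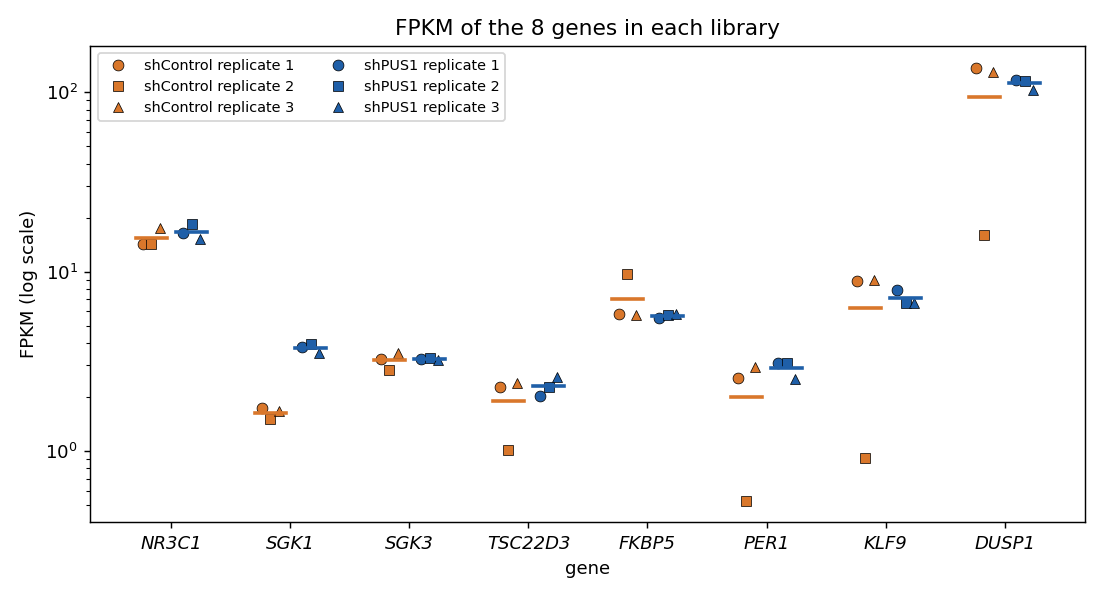
FPKM of the 8 genes in each library, on a log axis, with shControl in orange, shPUS1 in blue, a marker shape per replicate number and a bar at each group mean. SGK1 is the gene whose groups separate (1.50 to 1.74 against 3.52 to 3.93 FPKM), and the orange square, shControl replicate 2, lies far below the other libraries for KLF9, DUSP1 and PER1 and above them for FKBP5.

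SGK3 (ENSG00000104205), on the plus strand of chromosome 8 from 66712734 to 66862022, had 3.26, 3.31 and 3.22 FPKM in the shPUS1 libraries and 3.26, 2.83 and 3.54 FPKM in the shControl libraries. The groups overlapped, and the log2 fold change was 0.05 (SE 0.14), or -0.02 without shControl replicate 2. The ratio of SGK1 to SGK3 per listed exonic length was 1.17, 1.19 and 1.09 in the shPUS1 libraries and 0.534, 0.530 and 0.472 in the shControl libraries. The ratio was below 1 in each control library and above 1 in each knockdown library, a description that rests on the same contrast. The exonic lengths used, 9990 bases for SGK1 and 5691 for SGK3, count all annotated exons, so the ratio does not settle which kinase transcript was more abundant. SGK2, the remaining kinase of the family, lay at or below 0.20 FPKM in every library. The related kinase gene AKT1 had 11.7 to 12.7 FPKM in the shPUS1 libraries and 12.8 to 13.8 FPKM in the shControl libraries, and AKT2 overlapped between groups (5.07 to 6.72 FPKM). Their log2 fold changes were -0.10 (edgeR adjusted p = 0.606) and -0.18 (adjusted p = 0.426).

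The genes most like SGK1 over the 6 libraries were DDAH1, which encodes an enzyme that degrades methylated arginines, the phosphatase gene PPM1D, the kinesin adaptor gene SYBU, the malic enzyme gene ME1 and the syntaxin gene STX3, with r of 0.996 to 0.997. Their log2 fold changes were 0.85, 0.71, 0.88, 1.10 and 1.22. In shControl replicate 2 they differed by -0.22 to 0.01 log2 units from the other controls, near the -0.11 of SGK1, which their choice likewise largely fixes.

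TSC22D3 (ENSG00000157514), on the minus strand of chromosome X from 107713221 to 107777342, encodes GILZ, which binds and restrains NF-κB and AP-1 factors. Its level was 2.04, 2.27 and 2.58 FPKM in the shPUS1 libraries and 2.28, 1.02 and 2.40 FPKM in the shControl libraries. The groups overlapped and shControl replicate 2 was the lowest library, with a difference of -1.11 log2 units from the other controls. The log2 fold change was 0.31 (SE 0.31) with all libraries and 0.01 without that library. The genes most like TSC22D3 were HLA-F, PTGER2, CYSTM1, LARGE2 and MYO1D, with r of 0.994 to 0.998. All 5 were low in shControl replicate 2 as well, with differences of -2.91 to -0.61 log2 units, which their choice by correlation over these libraries largely fixes.

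FKBP5 (ENSG00000096060), on the minus strand of chromosome 6 from 35573585 to 35728583, had 5.54, 5.72 and 5.80 FPKM in the shPUS1 libraries and 5.78, 9.66 and 5.71 FPKM in the shControl libraries. Here shControl replicate 2 was the highest of the 6 libraries, 0.82 log2 units above the other controls, while the remaining 5 lay within 5.54 to 5.80 FPKM. The log2 fold change was -0.30 (SE 0.23) with all libraries and 0.03 without that library. FKBP5, a sensitive induced gene in many tissues, deviated in that library in the opposite direction to TSC22D3, PER1, KLF9 and DUSP1, and the cause was not tested.

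PER1 (ENSG00000179094) lies on the minus strand of chromosome 17 from 8140472 to 8156506 and is a core repressor of the circadian clock. It had 3.11, 3.11 and 2.51 FPKM in the shPUS1 libraries and 2.54, 0.53 and 2.96 FPKM in the shControl libraries. The groups overlapped, with a log2 fold change of 0.58 (SE 0.50), or 0.12 without shControl replicate 2. Its relatives PER2 (0.12 to 0.51 FPKM) and PER3 (0.95 to 1.60 FPKM) were both highest in shControl replicate 2, where PER1 was lowest.

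KLF9 (ENSG00000119138), on the minus strand of chromosome 9 from 70384604 to 70414657, encodes a repressor of the Krüppel-like family that binds GC-rich DNA. Its level was 7.88, 6.69 and 6.69 FPKM in the shPUS1 libraries and 8.83, 0.92 and 9.03 FPKM in the shControl libraries. Apart from shControl replicate 2, the controls were above each knockdown library, and the log2 fold change of 0.23 (SE 0.64) became -0.29 without that library. In shControl replicate 2 KLF9 was 9.01-fold lower than in the other controls, a difference of -3.17 log2 units.

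DUSP1 (ENSG00000120129), on the minus strand of chromosome 5 from 172768096 to 172771195, encodes a nuclear phosphatase that switches off p38 and JNK. It was the most abundant of the 8 genes, with 117, 115 and 103 FPKM in the shPUS1 libraries and 137, 15.9 and 130 FPKM in the shControl libraries. As for KLF9, the controls other than replicate 2 were above each knockdown library, and replicate 2 was 7.93-fold lower, a difference of -2.99 log2 units. The log2 fold change of 0.29 (SE 0.61) became -0.21 without that library.

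**Figure D2:**
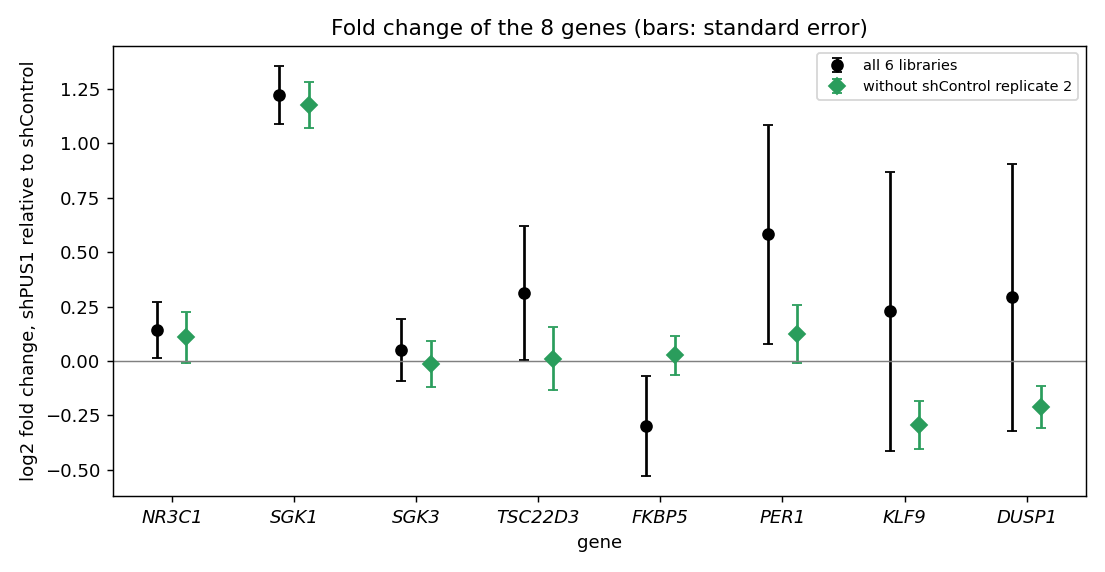
Log2 fold change of shPUS1 relative to shControl for the 8 genes, with bars of 1 standard error, from all 6 libraries (black circles) and without shControl replicate 2 (green diamonds). SGK1 is at 1.22 and 1.18, the other 7 genes lie between -0.30 and 0.58 with all libraries and between -0.29 and 0.12 without that library.

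Ordered by mean FPKM in the shPUS1 libraries, the genes ran DUSP1 (112 ± 7.92, SD, n = 3), NR3C1 (16.7 ± 1.62), KLF9 (7.09 ± 0.69), FKBP5 (5.69 ± 0.13), SGK1 (3.75 ± 0.21), SGK3 (3.26 ± 0.05), PER1 (2.91 ± 0.35) and TSC22D3 (2.30 ± 0.27). Neighbours in this order did not overlap, except PER1 and TSC22D3. In the shControl libraries SGK1 was the lowest of the 8, at 1.64 ± 0.12 FPKM. Of the neighbours in that order only NR3C1 (15.4 ± 1.85) and FKBP5 (7.05 ± 2.26) did not overlap. FPKM divides by the length of all annotated exons of a gene, 2013 bases for DUSP1, so a gene with many alternative exons, such as SGK1, reads low on this scale.

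For 7 of the 8 genes, all except SGK1, the SD of the controls exceeded the difference between the group means in FPKM. KLF9, DUSP1, PER1 and TSC22D3 lay at least 1 log2 unit below the other controls in shControl replicate 2, against 11.4% of all tested genes. Only 0.441% of tested genes lay as low as KLF9 or lower, 0.617% as low as DUSP1, 1.78% as low as PER1 and 9.58% as low as TSC22D3. PER1 was 4.78-fold lower than in the other controls, a difference of -2.26 log2 units. For NR3C1, SGK1 and SGK3 the differences were -0.07, -0.11 and -0.19 log2 units. Over the 6 libraries KLF9 and DUSP1 correlated at r = 0.998 and FKBP5 and DUSP1 at r = -0.998, and these values rested largely on that library: without it, over 5 libraries, they were 0.861 and -0.753, and that of PER1 and DUSP1 moved from 0.983 to -0.05. In bulk RNA, fewer cells that express a gene and less RNA per cell cannot be told apart.

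**Figure D3:**
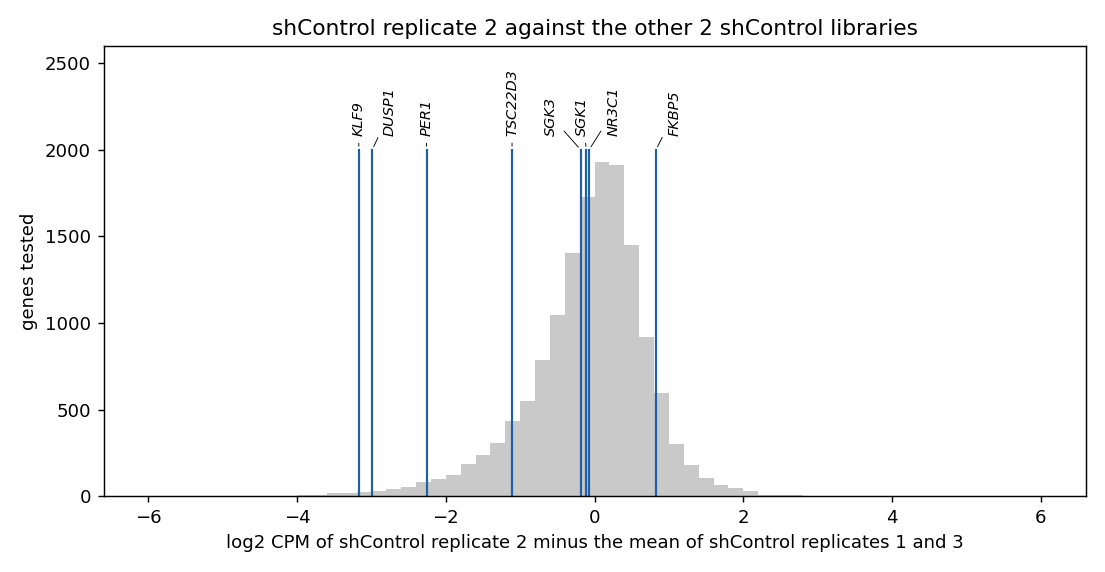
Histogram of the 14748 tested genes by the log2 CPM of shControl replicate 2 minus the mean of shControl replicates 1 and 3, with a blue line for each of the 8 genes. KLF9 (-3.17), DUSP1 (-2.99) and PER1 (-2.26) lie in the left tail, SGK3, SGK1 and NR3C1 near 0, and FKBP5 (0.82) on the right.

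The receptor's partners and handling of its ligand were examined with lists written from general knowledge. Of 12 genes for HSP90, its partner proteins and the mineralocorticoid receptor NR3C2, HSP90AA1 fell and 11 did not pass, a share of 8.33% against the background of 2.58%. The list's median log2 fold change was -0.08, against -0.03 over all genes. HSP90AA1, the inducible HSP90 that holds the receptor ready for ligand, had 207, 198 and 232 FPKM in the shPUS1 libraries and 400, 391 and 311 FPKM in the shControl libraries. The groups did not overlap, with a log2 fold change of -0.77 (SE 0.15, edgeR adjusted p = 0.0445), or -0.70 (adjusted p = 0.00882) without shControl replicate 2. The call was lost when shControl replicate 1 or any 1 of the shPUS1 libraries was left out. PTGES3, the HSP90 partner p23, differed by -0.47 log2 units (adjusted p = 0.0905), or by -0.40 (adjusted p = 0.0392) without that library. FKBP4, which competes with FKBP5 on HSP90, had -0.08 (adjusted p = 0.713).

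NR3C2, which binds cortisol with high affinity and shares response elements with NR3C1, had 2.96, 2.77 and 2.55 FPKM in the shPUS1 libraries and 1.44, 0.55 and 2.21 FPKM in the shControl libraries. The shPUS1 libraries were above all controls, and the log2 fold change was 1.03 (SE 0.41, edgeR adjusted p = 0.171). Without shControl replicate 2, where NR3C2 differed by -1.60 log2 units from the other controls, it was 0.64 (SE 0.18, adjusted p = 0.0386). NR3C1 exceeded NR3C2 per exonic length by 5.52 to 6.66 times in the shPUS1 libraries and by 7.93, 9.96 and 26.0 times in the shControl libraries, the highest in replicate 2.

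Of 7 genes for activation, inactivation and export of the ligand, 4 could be tested and 0 passed the edgeR threshold, with 1 at an unadjusted p under 0.05 and 0 calls by DESeq2. Without shControl replicate 2, 1 of the 4 passed (25%), against 18.6% of all tested genes. This was H6PD, named after its values were seen, at -0.62 log2 units (edgeR adjusted p = 0.0379), or -0.44 (adjusted p = 0.25) with all libraries. HSD11B1, which regenerates cortisol from cortisone, had 0.91, 1.26 and 1.58 FPKM in the shPUS1 libraries and 1.01, 0.34 and 0.60 FPKM in the shControl libraries, which overlapped (log2 fold change 0.98, SE 0.45, adjusted p = 0.219). HSD11B2, which inactivates cortisol, was at 0.18 FPKM or less in every library. For SRD5A1, a steroid reductase gene, the log2 fold change was -0.44 (adjusted p = 0.158).

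Of 12 coregulator genes, 0 passed the edgeR threshold with all libraries, 2 had an unadjusted p under 0.05 and 1 was called by DESeq2. NCOA3, a histone acetyltransferase coactivator of nuclear receptors that is often amplified in breast cancer, had 18.2, 19.8 and 14.5 FPKM in the shPUS1 libraries and 8.09, 5.84 and 12.8 FPKM in the shControl libraries. The groups did not overlap, and the log2 fold change was 1.01 (SE 0.26, adjusted p = 0.0747), or 0.79 (adjusted p = 0.0262) without shControl replicate 2. The list's median was 0.36, against -0.03 over all genes. Long genes differed between libraries as a group: those with at least 8000 exonic bases had median deviations of 0.06, 0.12 and -0.003 log2 units in the shPUS1 libraries and -0.14, -0.09 and 0.05 in the shControl libraries, and the part of this in the list's median was not tested.

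**Figure D4:**
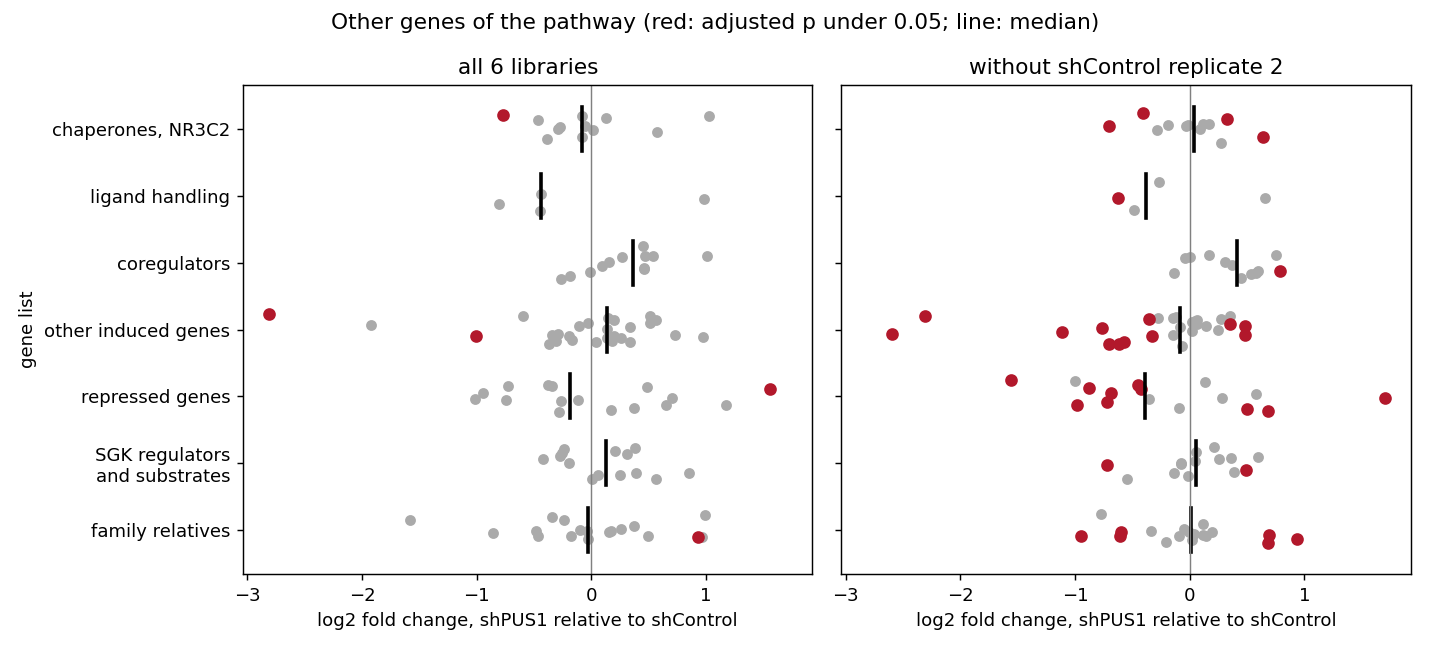
Log2 fold change of each tested gene in 7 lists, with all 6 libraries (left) and without shControl replicate 2 (right), a black line at each list's median and red points for an edgeR adjusted p under 0.05. With all libraries 5 genes of these lists are red. Without that library the induced and repressed lists have 12 and 10 red points, most of them to the left of 0.

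Among 28 other genes that glucocorticoids induce in various tissues, 27 could be tested, 0 rose and 2 fell with all libraries, a share of 7.41% against 2.58% of all tested genes. Their median was 0.13, and -0.08 without shControl replicate 2. ANGPTL4, which encodes an inhibitor of lipoprotein lipase, had 0.33, 0.51 and 0.59 FPKM in the shPUS1 libraries and 3.58, 4.24 and 2.33 FPKM in the shControl libraries, a log2 fold change of -2.81 (SE 0.35, edgeR adjusted p = 0.0215). THBD, the thrombomodulin gene, had 6.39, 5.74 and 5.97 FPKM against 12.6, 10.3 and 14.3 FPKM, a log2 fold change of -1.01 (SE 0.15, adjusted p = 0.0294). Neither gene's groups overlapped, and both fell without shControl replicate 2 as well, by 2.59 and 1.11 on the log2 scale. Both calls were lost when shControl replicate 1 or any 1 of the shPUS1 libraries was left out.

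Without shControl replicate 2, 3 of these 27 genes rose and 9 fell (44.4%), while 18.6% of all tested genes were called in either direction. Those that rose were SLC19A2 (log2 fold change 0.48, edgeR adjusted p = 0.0146), KLF15 (0.48, adjusted p = 0.045) and NFKBIA (0.35, adjusted p = 0.0392). They were named after their values were seen. DDIT4, which encodes an inhibitor of mTOR signalling and was singled out after its values were seen, had 27.7, 27.4 and 24.4 FPKM in the shPUS1 libraries and 141, 39.3 and 129 FPKM in the shControl libraries. Its log2 fold change of -1.92 (adjusted p = 0.0521) became -2.30 (adjusted p = 8.51e-05) without that library. Of the list, 8 genes lay at least 1 log2 unit below the other controls in shControl replicate 2 and 0 above, against 11.4% and 5.09% of all tested genes, among them CDKN1C (-2.64), KLF15 (-2.53) and PDK4 (-1.74), also named after their values were seen. CDKN1C, a cell cycle inhibitor gene, had 7.34, 7.90 and 6.22 FPKM in the shPUS1 libraries and 6.85, 1.07 and 7.67 FPKM in the shControl libraries.

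Of 19 inflammatory and matrix genes that the receptor represses, 16 could be tested, and 1 rose and 0 fell with all libraries, a share of 6.25% against 2.58% of all tested genes. MMP3, the stromelysin gene, had 7.28, 7.41 and 6.78 FPKM in the shPUS1 libraries and 2.80, 2.83 and 1.70 FPKM in the shControl libraries, without overlap (log2 fold change 1.56, SE 0.24, edgeR adjusted p = 0.0324). It was 1.70 (adjusted p = 0.00225) without shControl replicate 2, and the call was lost without shControl replicate 1 or any 1 of the shPUS1 libraries. MMP1, the interstitial collagenase gene, had 97.0, 90.5 and 109 FPKM against 78.6, 42.8 and 65.0 FPKM, which is higher by 0.70 on the log2 scale (adjusted p = 0.0952), or by 0.50 (adjusted p = 0.0285) without that library.

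Without shControl replicate 2, 3 genes of the list rose and 7 fell (62.5%), while 18.6% of all tested genes were called. Besides MMP3 and MMP1, the gene that rose was IL1A (log2 fold change 0.68, edgeR adjusted p = 0.00553), named after its values were seen. IL6, an inflammatory cytokine gene named after its values were seen, had 13.5, 16.7 and 14.4 FPKM in the shPUS1 libraries and 31.3, 3.67 and 24.7 FPKM in the shControl libraries. Its log2 fold change was -0.38 (adjusted p = 0.718) with all libraries and -0.88 (adjusted p = 0.00525) without that library. In shControl replicate 2, 8 of the 16 genes lay at least 1 log2 unit below the other controls, against 11.4% of all tested genes. Among them were CCL20 (-3.44) and IL6 (-2.83), both named after their values were seen. Of the 27 induced genes, 8 lay as low in that library, and the cause was not tested.

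Of 16 regulators and substrates of the SGK kinases, 14 could be tested and 0 passed the edgeR threshold, with 2 at an unadjusted p under 0.05 and 2 called by DESeq2. GSK3B, a kinase gene whose product SGK1 can phosphorylate, was higher by 0.56 log2 units in shPUS1 (adjusted p = 0.0729), or by 0.49 (adjusted p = 0.0301) without shControl replicate 2. RICTOR, a subunit of the complex that phosphorylates SGK1, had 0.85 (adjusted p = 0.117), and PDPK1, the kinase that completes SGK1 activation, had -0.26 (adjusted p = 0.432). NDRG1, an SGK1 substrate gene named after its values were seen, had 56.6, 58.1 and 58.1 FPKM in the shPUS1 libraries and 102, 18.9 and 93.8 FPKM in the shControl libraries. Its log2 fold change was -0.27 (adjusted p = 0.756) with all libraries and -0.72 (adjusted p = 0.0019) without shControl replicate 2.

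Among 19 relatives of the 8 genes, 18 could be tested, and 1 rose and 0 fell, a share of 5.56% against 2.58% of all tested genes. Without shControl replicate 2, 3 rose and 3 fell, 33.3% against 18.6% of all genes. DUSP10, which encodes a phosphatase for p38 and JNK as DUSP1 does, had 23.8, 20.4 and 22.6 FPKM in the shPUS1 libraries and 11.9, 11.7 and 12.1 FPKM in the shControl libraries. The log2 fold change was 0.93 (SE 0.12, edgeR adjusted p = 0.0248), and 0.93 (adjusted p = 0.0019) without shControl replicate 2, where DUSP10 differed by 0.04 log2 units from the other controls. This call too was lost without shControl replicate 1 or any 1 of the shPUS1 libraries. KLF10 had 3.82, 3.93 and 3.70 FPKM against 7.17, 19.2 and 7.99 FPKM. The difference was -1.58 log2 units (adjusted p = 0.0653) with all libraries and -0.95 (adjusted p = 0.00154) without that library. KLF10 was 1.41 log2 units above the other controls in shControl replicate 2, the opposite of KLF9.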

How the data were processed

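RNA from 3 shControl and 3 shPUS1 libraries was poly(A)-selected and sequenced by the authors, who aligned reads with HISAT2 and counted genes with HTSeq 0.6.1, per the labels. Genome build, annotation release and strandedness are not given in the sources used here. The deposited table holds estimated counts per gene, not normalized. Of values above 0, 29.8 to 31.8% are not whole, and the text used here does not say how these arose from the counting it names. The table also holds FPKM, which the authors made from these counts, exonic length and library total. Members were found by gene symbol, and their positions are those of the table, with all 8 identifiers in GENCODE release 29 (GRCh38) and 4 with identical ends.

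Counts were rounded, filtered with filterByExpr, scaled by TMM (factors 0.973 to 1.032) and fitted with edgeR 4.0.16 in R 4.3.3 (quasi-likelihood test, two-sided, Benjamini-Hochberg adjustment over 14748 genes, calls at 0.05). A standard error is the absolute value of edgeR's unshrunken coefficient, on the log2 scale, divided by the square root of F. The log2 fold changes given are edgeR's shrunken values. The biological coefficient of variation was 0.22. CPM on the log2 scale used a prior count of 2. On simulated data for 3 against 3 libraries and 14748 genes, 105 of 200 genes changed by 1.2 log2 units and 175 of 200 changed by 2 were recovered, with 8 and 6 false calls. Apart from these changes, all simulated libraries of a gene were drawn from a common mean. No simulated library stood apart as shControl replicate 2 did, so these rates may not hold for the real libraries.

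The members and lists were chosen with earlier results of these data known. Named besides the members were PUS1, the markers, up to 6 called genes per list with the smallest adjusted p or otherwise the smallest p up to 2, NR3C2, the SGK family, AKT1, AKT2 and the 5 protein-coding genes most correlated with SGK1, TSC22D3 and NR3C1. Genes outside this rule are marked as such, and some genes under it are not reported here. Sequences are from RefSeq, by symbol. Alternatives were DESeq2 size factors, no filter, a replicate block, DESeq2 1.42.0, a fold limit and each library left out. Libraries with the same replicate number were not paired, as their deviations from the group means correlated at -0.05, -0.03 and -0.19. Reads of annotated genes that overlap a member had at most 43.6 counts each over all libraries. Levels come from counts and carry counting error besides the spread between libraries.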

Additional observations from a re-analysis of the deposited data

How the results depend on the processing

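Of 179 values recomputed under alternatives, 114 stayed the same. For a count of calls this means at most 1.5 times apart from the main count. For a member's fold change it means the same direction and side of the threshold. By this rule TSC22D3 stayed the same although it went from 0.31 to 0.01 without shControl replicate 2. In fits that called only 0 to 18 genes in all, an uncalled member or list was unlikely to gain a call. The 114 is therefore not a measure of stability. Another 56 counts moved by over 1.5 times or to or from 0, 5 fold changes, all of SGK1, lost the call and 4 changed sign. The sign changes were all without shControl replicate 2: SGK3 to -0.0153, FKBP5 to 0.0263, KLF9 to -0.29 and DUSP1 to -0.21. With each library left out in turn, log2 fold changes ranged from 1.18 to 1.26 for SGK1, 0.07 to 0.22 for NR3C1, -0.02 to 0.10 for SGK3, 0.01 to 0.49 for TSC22D3, -0.45 to 0.03 for FKBP5, 0.12 to 0.95 for PER1, -0.29 to 0.57 for KLF9 and -0.21 to 0.67 for DUSP1. The 380 genes called overall became 1284 with no filter on low counts, 1708 with DESeq2, 202 with a log2 fold change of at least 1, and 0 to 2813 with a library left out, the highest without shControl replicate 2 and the lowest without shPUS1 replicate 3 (0 by edgeR, 2581 at an unadjusted p under 0.05). With a replicate block 18 genes were called, and the calls of SGK1 (log2 fold change 1.22), HSP90AA1, the induced, repressed and relatives' lists were lost, leaving 0 in each, although replicate numbers gave no pairing.

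With no filter, calls numbered 1 among coregulators, 5 among induced genes, 2 among repressed genes, 2 among SGK regulators and substrates and 4 among relatives. With DESeq2 they numbered 2 among chaperones, 1, 5, 2, 2 and 5 in the same order. With a fold limit, chaperones and relatives had 0. With a library left out, calls ranged from 0 to 1 for the members, the ligand list and the coregulators, 0 to 4 for chaperones, 0 to 12 for induced genes, 0 to 10 for repressed genes, 0 to 2 for SGK regulators and 0 to 6 for relatives. The cause of these moves was not tested.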

Other observations

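The deposited table also annotates genes with biological process terms, and a search for terms naming glucocorticoid, cortisol or dexamethasone, chosen after the data had been seen, found 101 genes with enough counts for the test. Of these, 4 were called higher and 0 lower by the edgeR threshold, against 1.74% and 0.841% of all tested genes, and the median log2 fold change was 0.06. The 4 were SGK1, the clock repressor gene CRY1 (0.74), the ubiquitin ligase gene NEDD4 (0.96) and the annexin gene ANXA3 (0.76). The set holds 5 of the 8 members, so it is not separate from them, and SGK1 was selected on this contrast.

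Among the relatives, the p38 and JNK phosphatase gene DUSP16 had 7.85, 7.95 and 7.69 FPKM in the shPUS1 libraries and 5.03, 2.09 and 4.98 FPKM in the shControl libraries (log2 fold change 0.99, edgeR adjusted p = 0.095, or 0.69 and 0.0032 without shControl replicate 2). DUSP6, an ERK phosphatase gene, had 34.4, 33.8 and 37.1 FPKM against 56.4, 41.2 and 52.8 FPKM (log2 fold change -0.49, adjusted p = 0.0854, or -0.60 and 0.00533). Both were named after their values were seen.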
